A study of Mus musculus with 2 samples.

Results

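Genes of the lysosome, the acidic compartment in which macrophages break down what they take up, were followed in nuclear RNA of mouse macrophages. The set is a list of 46 symbols out of 55450 annotated genes, and all 46 were found in the tables of both libraries. By the role of their products they are 13 proteases, 13 glycosidases, 4 sulfatases and phosphatases, 5 lipid hydrolases, 3 soluble proteins that are not enzymes and 8 membrane proteins.

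The RNA came from bone marrow derived macrophages of C57BL/6J mice exposed for 10 min to 100 ng/ml Lipid A, the part of bacterial lipopolysaccharide that Toll-like receptor 4 recognises. One label field calls the fraction nucleoplasmic and others call it nuclear or nucleus, and total RNA was sequenced after removal of ribosomal RNA. The 2 libraries are biological replicates 1 and 2 of the same group, made from separate biosamples under 1 donor identifier with 1 µg and 500 ng of RNA, and the labels give sex and age as not collected and name no transgene or deletion. Whether the cultures came from separate mice is not stated, so the spread between the libraries may be partly technical. Cells without Lipid A were not analysed here, so a level below is a state at 1 time and not a response.

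Replicate 1 held 19130081 expected counts on annotated genes and replicate 2 held 11608680. A count of 0 allows up to 0.157 CPM (counts scaled to library size) in replicate 1 and 0.258 CPM in replicate 2, by counting error only. The lysosomal genes took 4.71% of the counts in replicate 1 and 3.31% in replicate 2. All 8 macrophage markers of a list were detected (1 TPM or more in both libraries), with a summed level of 1387 TPM in replicate 1 and 1047 TPM in replicate 2. No B cell, T and NK cell, fibroblast or dendritic cell marker was, and Cd3e, Ncr1 and Pdgfra had 0 counts in both libraries. Of 7 neutrophil markers, S100a8 alone was detected, at 1.53 TPM in replicate 1 and 1.75 TPM in replicate 2. These counts are of the gene tables. A second table of the same libraries listed Cd3d, a T cell gene, at 2.53 TPM in replicate 1 and 10.1 TPM in replicate 2. It listed Siglech, a dendritic cell gene, at 1.22 TPM in replicate 1 and 1.72 TPM in replicate 2. No neutrophil marker reached 1 TPM in both libraries there.

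Lysosomal enzymes are made on the endoplasmic reticulum, and most soluble ones are tagged with mannose 6-phosphate in the Golgi and carried by receptors to the lysosome, where low pH activates them. Proteases such as the cathepsins cut proteins, glycosidases and sulfatases take sugar chains apart from their ends, and lipases and ceramidases break down membrane lipids with the help of small activator proteins. Many genes of the system are known targets of the transcription factor TFEB and its relatives, which bind a palindromic E-box in promoters, and inherited loss of single enzymes causes storage diseases.

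Promoters were searched for the letters CACGTG, the palindromic core that such factors bind, because the members are a set long studied for it. RefSeq windows on GRCm38.p6, from 250 bases before to 50 after each annotated start, were given for 42 members. Of these, 12 held CACGTG in at least 1 window, or 28.6%, beside 8.09% of 27025 genes with a window and 12.3% of 8283 protein-coding genes whose mean reached 1 TPM. The 7 letters TCACGTG, which contain the same core and were searched on both strands, were in 10 members, or 23.8%, beside 4.29% and 7.56%. By class, CACGTG stood in 5 of 11 proteases, 4 of 13 glycosidases, 2 of 7 membrane proteins, 1 of 4 sulfatases and phosphatases, 0 of 4 lipid hydrolases and 0 of 3 soluble non-enzymes. A match is a description of the letters and not a bound site. The windows below show the core in capitals with 12 bases on either side, on the strand of the gene, for members of 4 classes that span high and low levels.
Ctsd, chr7:142387908-142387937, minus strand: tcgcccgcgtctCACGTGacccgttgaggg
Lgmn, chr12:102439124-102439153, minus strand: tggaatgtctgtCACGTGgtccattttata
Ctsa, chr2:164833749-164833778, plus strand: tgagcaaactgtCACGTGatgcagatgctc
Lamp1, chr8:13159088-13159117, plus strand: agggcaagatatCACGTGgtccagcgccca
Mcoln1, chr8:3500462-3500491, plus strand: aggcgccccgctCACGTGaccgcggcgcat
Naglu, chr11:101070009-101070038, plus strand: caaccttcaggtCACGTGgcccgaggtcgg
Glb1, chr9:114401018-114401047, plus strand: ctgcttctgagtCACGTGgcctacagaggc
Arsa, chr15:89477423-89477452, minus strand: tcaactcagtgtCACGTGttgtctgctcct
All 8 printed windows hold TCACGTG on 1 strand or the other. Lamp1 has 4 cores in its window, and Ctsa, Mcoln1 and Gla have 2 each. Members with the core ranged from Ctsd, with a mean of 1926 TPM, to Ctsf, with a mean of 6.79 TPM. The core was not found in the highest member, Psap, or in the lowest, Acp5 and Ctsk.

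Transcripts of nearly every listed gene were present in the nuclear RNA, and several stood among the most abundant protein-coding transcripts of these cells. Of the 46 members, 45 reached 1 TPM in both libraries, against a background of 46.1% of 21951 protein-coding genes. TPM divides counts by transcript length and scales each library to the same total, so levels of different genes can be set side by side. Of the 46, 13 were among the 100 highest protein-coding genes, where the background is 0.961%. A level of 100 TPM or more in both libraries was reached by 22 members (background 2.59%), and 6 stayed under 10 TPM in both (background 46.8%). The median member had 115 TPM in replicate 1 and 96.5 TPM in replicate 2. The median detected protein-coding gene had 10.9 TPM in replicate 1 and 9.96 TPM in replicate 2. Together the members took 6.19% of all protein-coding TPM in replicate 1 and 4.21% in replicate 2. In bulk RNA, a larger amount of a transcript per cell and a larger share of cells that hold it cannot be told apart.

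**Figure D1:**
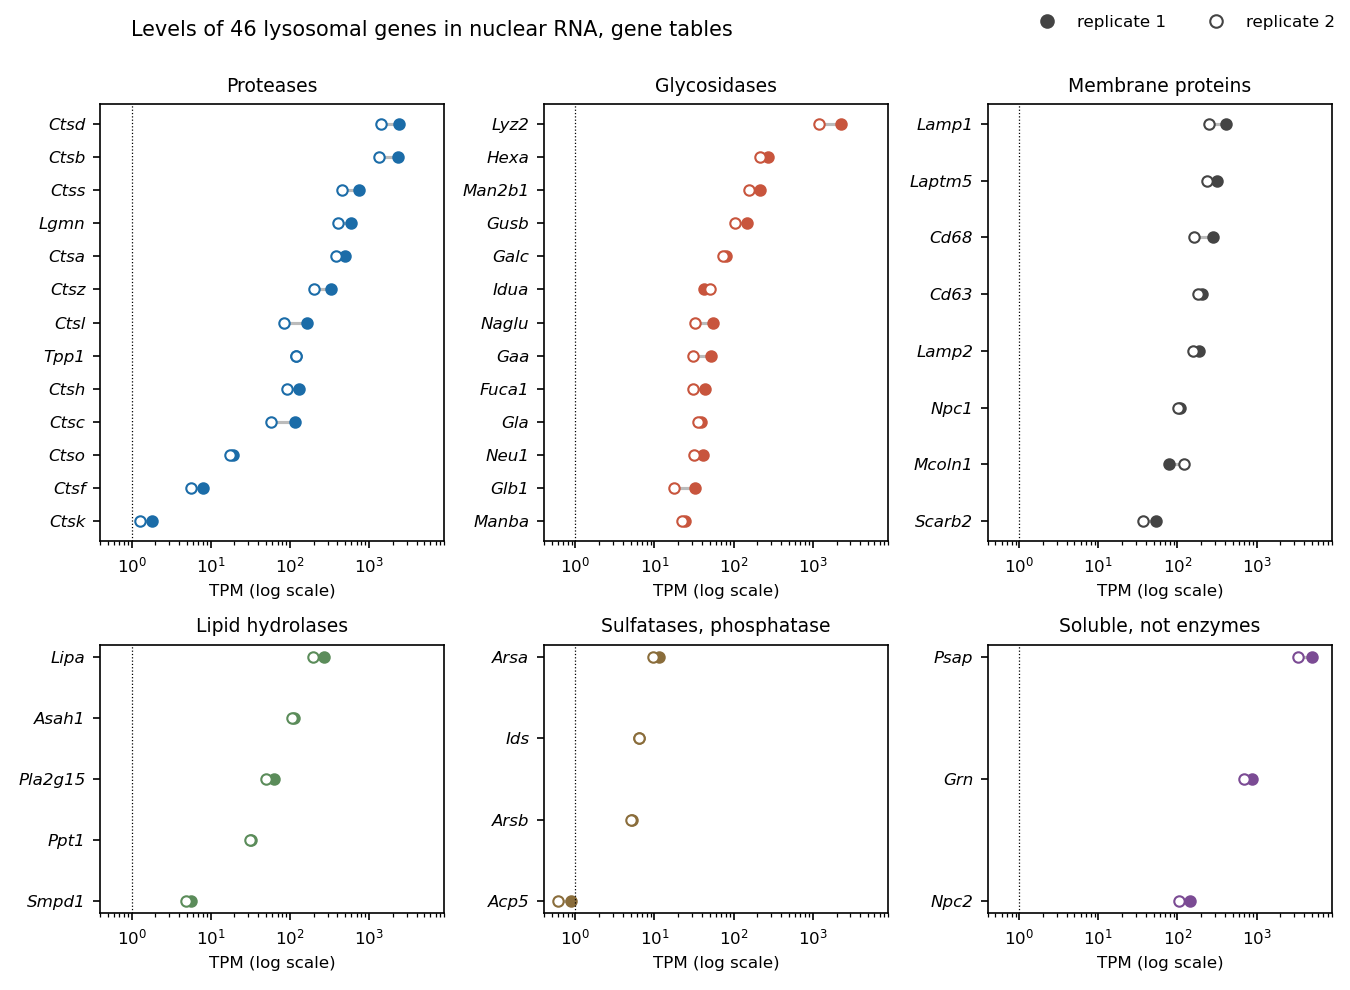
Level of each lysosomal gene in TPM on a log scale, grouped by the role of the product, with a filled point for replicate 1 and an open point for replicate 2 (1 library each). The dotted line marks 1 TPM, and Acp5 alone lies left of it in both libraries, while Psap lies highest at 5094 and 3309 TPM.

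The proteases held the largest share of the members' RNA, 2.43% of protein-coding TPM in replicate 1 and 1.57% in replicate 2, and their levels ran from Ctsd and Ctsb at the top to Ctsk near the detection limit. Ctsd (ENSMUSG00000007891.16, chr7:142375911-142388038, minus strand), which encodes the aspartic protease cathepsin D, had 2429 TPM in replicate 1 and 1423 TPM in replicate 2, a mean of 1926 ± 712 (SD, n = 2). Ctsb (ENSMUSG00000021939.8, chr14:63122462-63145923, plus strand), for the cysteine protease cathepsin B, had 2324 TPM in replicate 1 and 1361 TPM in replicate 2. Their order in level does not exceed the spread between the libraries. Ctss, for cathepsin S, which trims the invariant chain of class II antigen presentation, followed with 742 TPM in replicate 1 and 451 TPM in replicate 2. Lgmn, for the asparaginyl endopeptidase legumain that processes other cathepsins, had 596 TPM in replicate 1 and 413 TPM in replicate 2. Ctsa, for a carboxypeptidase that also stabilises neuraminidase and beta-galactosidase, had 503 TPM in replicate 1 and 385 TPM in replicate 2. These 3 formed a second tier, in which neighbours overlap in the range of their libraries.

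The next proteases lay lower, most of them near 100 TPM. Ctsz, a carboxypeptidase of the cysteine cathepsins, had 333 TPM in replicate 1 and 201.75 TPM in replicate 2. Ctsl, for cathepsin L, had 165 TPM in replicate 1 and 83.9 TPM in replicate 2. Tpp1, which removes tripeptides from protein ends and is lost in a childhood neuronal ceroid lipofuscinosis, was nearly level between the libraries, with 121.5 TPM in replicate 1 and 120.7 TPM in replicate 2. Ctsh, for an aminopeptidase, had 130.2 TPM in replicate 1 and 92.4 TPM in replicate 2. Ctsc, whose dipeptidyl peptidase activates granule serine proteases, had 118 TPM in replicate 1 and 58.6 TPM in replicate 2. Apart from Ctsz, and from the pair Tpp1 and Ctsc, the ranges of these genes over the libraries overlap.

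The remaining proteases were low. Ctso had 19.4 TPM in replicate 1 and 17.3 TPM in replicate 2. Ctsf had 7.92 TPM in replicate 1 and 5.67 TPM in replicate 2. Ctsk, for the collagen-degrading cathepsin of osteoclasts, had 1.8 TPM (52 counts) in replicate 1 and 1.28 TPM (24 counts) in replicate 2. Acp5, the tartrate-resistant acid phosphatase that is also an osteoclast marker, was the one member under 1 TPM, with 0.87 TPM (22 counts) in replicate 1 and 0.61 TPM (10 counts) in replicate 2. Of 6 osteoclast markers, 1 was detected in the gene tables. This was Nfatc1, a transcription factor also present in other cells, with 17.7 TPM in replicate 1 and 16.4 TPM in replicate 2. Ocstamp had 0 counts in both libraries but 1.06 TPM in replicate 1 and 1.21 TPM in replicate 2 by the authors' second table. Dcstamp, Mmp9, Oscar and Calcr stayed under 1 TPM in both libraries by either table. Cathepsins of other tissues were mostly at 0. None of 11 such genes was detected in the gene tables, 8 of them had 0 counts in both libraries, and the highest, Ctsw, had 1.78 TPM in replicate 1 and 0.99 TPM in replicate 2, a level like that of Ctsk. By a second quantification, a separate transcript table that the authors made from the reads of the same libraries, Ctsw was detected, with 2.08 TPM in replicate 1 and 2.30 TPM in replicate 2.

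Of the protease inhibitors on a list of 7, 3 were detected. Cst3, for the secreted inhibitor cystatin C, had 81.8 TPM in replicate 1 and 44.2 TPM in replicate 2. Cstb, for its cytosolic relative stefin B, had 47.9 TPM in replicate 1 and 23.9 TPM in replicate 2. Cst7, for an inhibitor that acts on cathepsin C, was barely detected at 1.06 TPM in replicate 1 and 1.25 TPM in replicate 2. Stfa2 and Stfa3 had 0 counts in both libraries.

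The value of Ctsd carries a limit from the annotation. Of its exon bases, 808 (34.4%) lie on the same strand in Gm49369, a gene annotated as protein-coding that had 665 TPM in replicate 1 and 916 TPM in replicate 2. The neighbour was higher in replicate 2 while Ctsd was higher in replicate 1. Summed, they had 3094 TPM in replicate 1 and 2339 TPM in replicate 2. How reads of the shared exons were divided was not tested. Ctsb shares 774 exon bases with Fdft1 on the opposite strand, Ctsa shares 495 with Pltp and Ctsl shares 1742 with Gm47123. The sources used here do not give strand handling, so reads of such stretches cannot be told apart. Fdft1 was low, with 9.46 TPM in replicate 1 and 9.50 TPM in replicate 2, as was Gm47123, with 3.01 TPM in replicate 1 and 1.21 TPM in replicate 2. Pltp had 221 TPM in replicate 1 and 137 TPM in replicate 2, so the level of Ctsa is the less certain one.

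Glycosidases took 1.09% of protein-coding TPM in replicate 1 and 0.686% in replicate 2, and most of it was a single gene. Lyz2, for the lysozyme of macrophages and neutrophils that cuts the bacterial cell wall, had 2309 TPM in replicate 1 and 1215 TPM in replicate 2. It shares 32.8% of its 31-base stretches with its neighbour Lyz1, which was listed at 0.77 TPM in replicate 1 and 0.99 TPM in replicate 2. The next glycosidases were far below. Hexa, the alpha subunit of the hexosaminidase lost in Tay-Sachs disease, had 273 TPM in replicate 1 and 218 TPM in replicate 2. Man2b1, for the main lysosomal alpha-mannosidase, had 216 TPM in replicate 1 and 157 TPM in replicate 2. Gusb, for beta-glucuronidase, had 147 TPM in replicate 1 and 104 TPM in replicate 2.

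The other 9 glycosidases lay between 17.9 and 79.5 TPM. Galc, for the galactosylceramidase lost in Krabbe disease, was the highest of them, with 79.5 TPM in replicate 1 and 74.5 TPM in replicate 2. Idua, for the iduronidase of heparan and dermatan sulfate breakdown, had 42.6 TPM in replicate 1 and 49.96 TPM in replicate 2, the only glycosidase with more TPM in replicate 2. Naglu, which removes N-acetylglucosamine from heparan sulfate, had 54.99 TPM in replicate 1 and 32.9 TPM in replicate 2. Gaa, for the acid alpha-glucosidase that degrades glycogen, had 51.3 TPM in replicate 1 and 31.1 TPM in replicate 2. Fuca1, Neu1 and Gla, for a fucosidase, the sialidase and the alpha-galactosidase lost in Fabry disease, each lay between 30.9 and 43.8 TPM in both libraries. Their ranges overlap, so no order among these 3 was seen in the gene tables. By the second quantification their ranges did not overlap. There Gla had 33.3 TPM in replicate 1 and 38.3 TPM in replicate 2, Fuca1 25.6 and 26.2 TPM, and Neu1 17.2 and 22.2 TPM. Glb1, for beta-galactosidase, had 32.2 TPM in replicate 1 and 17.9 TPM in replicate 2. Manba, for beta-mannosidase, had 24.6 TPM in replicate 1 and 22.3 TPM in replicate 2.

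Sulfatases and the phosphatase had the lowest levels of the 6 classes, 0.00777% of protein-coding TPM in replicate 1 and 0.00726% in replicate 2. Arsa, for the arylsulfatase that acts on sulfatide, had 11.6 TPM in replicate 1 and 9.44 TPM in replicate 2. Ids, for iduronate sulfatase, had 6.32 TPM in replicate 1 and 6.31 TPM in replicate 2. Arsb, for the sulfatase of dermatan sulfate, had 5.24 TPM in replicate 1 and 5.01 TPM in replicate 2. In the gene tables the 3 sulfatases did not overlap in range and kept their order in both libraries. By the second quantification the order held but neighbours overlapped in range. There Arsa had 4.63 TPM in replicate 1 and 6.27 TPM in replicate 2, Ids 3.18 and 6.22 TPM, and Arsb 2.35 and 3.54 TPM. Of the exon bases of Arsb, 32.3% lie opposite Gm26527, which had at most 0.28 TPM.

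Lipid hydrolases took 0.157% of protein-coding TPM in replicate 1 and 0.132% in replicate 2, and their order was the same in both libraries. Lipa, for the acid lipase that releases cholesterol from its esters, had 272 TPM in replicate 1 and 196 TPM in replicate 2. Asah1, for acid ceramidase, had 112 TPM in replicate 1 and 107 TPM in replicate 2. Pla2g15, for a lysosomal phospholipase, had 63.6 TPM in replicate 1 and 49.6 TPM in replicate 2. Ppt1, for a thioesterase that removes palmitate from proteins, had 32.3 TPM in replicate 1 and 31.6 TPM in replicate 2. Smpd1, for acid sphingomyelinase, was far lower, with 5.67 TPM in replicate 1 and 4.82 TPM in replicate 2. The ranges of the 5 genes over the libraries do not overlap each other.

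The 3 soluble proteins without enzyme activity included the highest member of all. Psap (ENSMUSG00000004207.14, chr10:60277627-60302597, plus strand), whose product is cut into the saposins that present lipids to hydrolases, had 5094 TPM in replicate 1 and 3309 TPM in replicate 2, a mean of 4202 ± 1263 (SD, n = 2). It ranked 6 among protein-coding genes by mean TPM. Grn (ENSMUSG00000034708.11, chr11:102430315-102437048, plus strand), for progranulin, had 870.25 TPM in replicate 1 and 704 TPM in replicate 2. Npc2, for the soluble protein that hands cholesterol to the membrane protein Npc1, had 144 TPM in replicate 1 and 105 TPM in replicate 2.

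Membrane proteins took 0.533% of protein-coding TPM in replicate 1 and 0.424% in replicate 2, and they lay within a narrower band than the proteases or the glycosidases. All 8 were detected, and the lowest, Scarb2, the receptor that carries glucocerebrosidase to lysosomes, had 53.7 TPM in replicate 1 and 36.3 TPM in replicate 2. Lamp1, a main glycoprotein of the lysosomal membrane, had 414 TPM in replicate 1 and 253 TPM in replicate 2. Laptm5, a transmembrane protein of blood cells, had 319 TPM in replicate 1 and 235 TPM in replicate 2. Cd68, the scavenger receptor family member used as a macrophage marker, had 281 TPM in replicate 1 and 161 TPM in replicate 2. These 3 overlap in range, as do the next 2. Cd63, a tetraspanin of late endosomes, had 204 TPM in replicate 1 and 183 TPM in replicate 2. Lamp2, the partner of Lamp1, had 187 TPM in replicate 1 and 157 TPM in replicate 2. Npc1, the cholesterol exporter, had 107 TPM in replicate 1 and 100.5 TPM in replicate 2. Mcoln1 (ENSMUSG00000004567.16, chr8:3500457-3515232, plus strand), for the calcium channel of the lysosomal membrane, had 78.3 TPM in replicate 1 and 123 TPM in replicate 2.

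Other genes of the pathway, taken from further lists, were detected as widely but at lower levels. All 20 other hydrolases were detected, with a median of 23.9 TPM in replicate 1 and 20.0 TPM in replicate 2. Hyal2, of the hyaluronidase family, was the lowest with 3.64 TPM in replicate 1 and 1.86 TPM in replicate 2. Of 22 other membrane proteins, 21 were detected. Slc11a1, the metal transporter of macrophage phagosomes, was the highest of these by mean, with 121 TPM in replicate 1 and 94.1 TPM in replicate 2, while Lamp3, a family member known from mature dendritic cells, had 2 counts in replicate 1 and 0 in replicate 2.

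Of the proton pump that acidifies the compartment, 18 of 19 listed symbols of subunits and accessory proteins matched a gene. The unmatched symbol, Atp6v0a3, need not stand for a further gene. All 18 were detected, with a median of 57.7 TPM in replicate 1 and 47.4 TPM in replicate 2. Tcirg1, a subunit of the membrane sector, had 519 TPM in replicate 1 and 474 TPM in replicate 2, as high as the second tier of proteases. All 10 genes for tagging and delivery were detected too. M6pr, for the cation-dependent mannose 6-phosphate receptor, was the highest with 62.1 TPM in replicate 1 and 45.5 TPM in replicate 2. Gnptg, for a subunit of the enzyme that starts the tag, was the lowest with 8.05 TPM in replicate 1 and 6.91 TPM in replicate 2.

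Most lysosomal genes were higher in replicate 1 than in replicate 2. The difference is the log2 of TPM + 1 in replicate 1 over replicate 2, less its median of 0.10 over 13945 genes whose mean reached 1 TPM. It compares 2 libraries and not conditions, and 1 library on each side allows no test. Of the 46 members, 37 were above 0 (background 49.5% of protein-coding genes), and the median was 0.30, against -0.00308 for protein-coding genes. More than 1.5-fold higher in replicate 1 were 12 members (background 5.73%), and more than 1.5-fold higher in replicate 2 was 1, Mcoln1 (background 2.94%). None was more than 2-fold apart (background 1.79%). By the second quantification 33 were above 0 (background 51.5%), but only Ctsc and Lyz2 were more than 1.5-fold higher in replicate 1 (background 4.93%), and the median was 0.16.

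**Figure D2:**
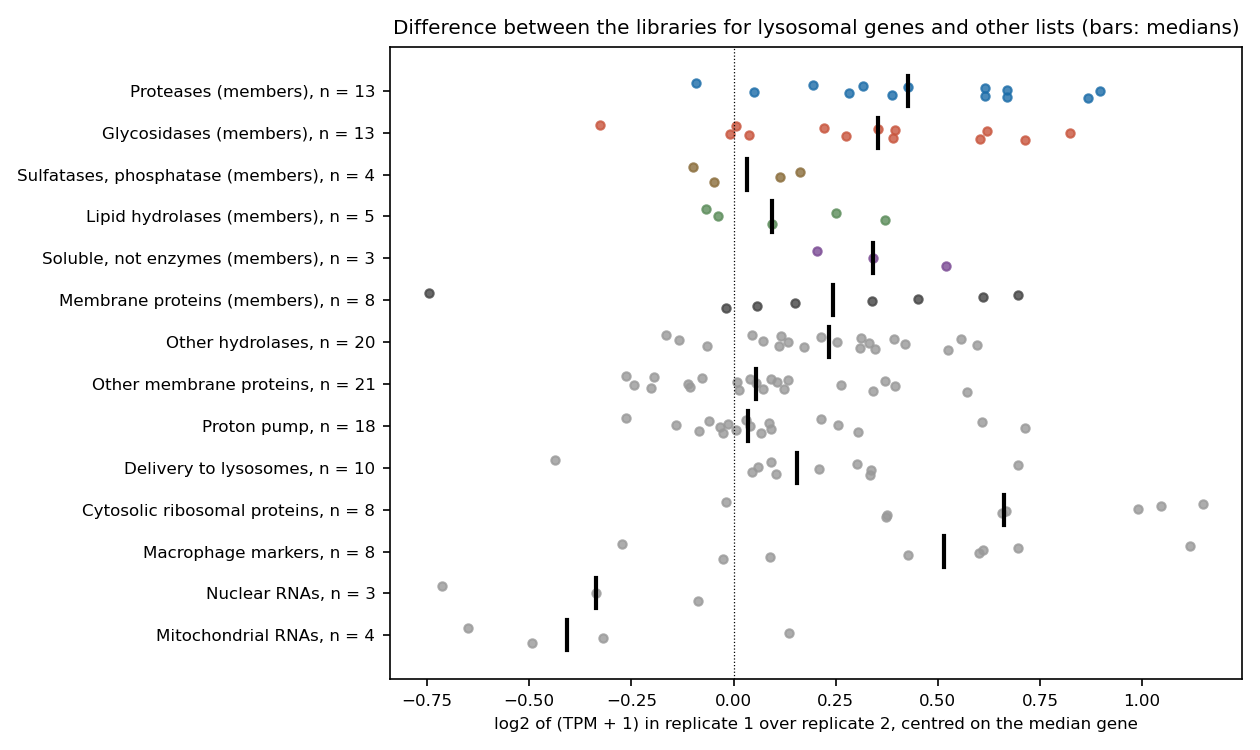
Log2 difference of replicate 1 over replicate 2 (TPM + 1, centred on the median gene) for each member by class in colour, and for other lists in grey, with a black bar at each median. The members lie mostly right of 0, with medians of 0.43 for proteases and 0.35 for glycosidases, and Mcoln1 at -0.75 is the leftmost member.

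The 5 largest differences belonged to 2 proteases, Ctsc at 0.90 and Ctsl at 0.87, 2 glycosidases, Lyz2 at 0.82 and Glb1 at 0.71, and the membrane protein Cd68 at 0.70. Of the proteases 12 of 13 were higher in replicate 1, and of the glycosidases 11 of 13. Membrane proteins had a median of 0.24 with 6 of 8 higher, lipid hydrolases a median of 0.09 with 3 of 5 higher, and sulfatases and the phosphatase a median of 0.03 with 2 of 4 higher. At the other end were Mcoln1 at -0.75, Idua at -0.33, Ids at -0.10, Tpp1 at -0.09 and Ppt1 at -0.07. Of the 46 members, 33 kept the sign of their difference under all 7 other scalings and tables tried (background 60.4%), and for 31 it was above 0 in all of them (background 34.7%). Ids, Tpp1 and Ppt1 were not among them, and each changed sign in 1 of the 7.

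Some other lists moved with the members and others the opposite way, and their part in the shift was not tested. All 8 cytosolic ribosomal protein genes were detected, with a summed level of 675 TPM in replicate 1 and 409 TPM in replicate 2. Their median difference was 0.66. The 8 macrophage markers, which include Cd68, had a median difference of 0.51. The nuclear RNAs Malat1, Neat1 and Xist had a summed level of 21756 TPM in replicate 1 and 32546 TPM in replicate 2, most of it Malat1, with centred differences of -0.71, -0.34 and -0.09. Xist itself had 331 TPM in replicate 1 and 327 TPM in replicate 2. The 4 mitochondrial RNAs had a summed level of 25763 TPM in replicate 1 and 26771 TPM in replicate 2. Their median difference was -0.41, with mt-Co1 the other way at 0.13. The libraries thus held much RNA that is not made in the nucleus, and how much of the other RNA came from outside it was not tested. Several lysosomal lists outside the members shifted less, with 0.23 for other hydrolases, 0.16 for delivery, 0.06 for other membrane proteins and 0.04 for the proton pump. The 3 protease inhibitors whose mean reached 1 TPM had a median of 0.77, above that of the members, with 2 of the 3 above 0. Among cathepsins of other tissues only Ctsw reached that mean, and it had 0.38.

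Mcoln1 was the exception among the members in the size of its excess in replicate 2, and a short transcript was part of it. Mcoln1-204, annotated as protein-coding with a length of 363 bases, was listed at 0 TPM in replicate 1 and at 28.5 TPM in replicate 2. The leading Mcoln1-201 had 28.0 TPM in replicate 1 and 38.6 TPM in replicate 2. By the second quantification Mcoln1-204 had 5.75 TPM in replicate 1 and 17.2 TPM in replicate 2, so it was again higher in replicate 2 but not at 0 in replicate 1. There Mcoln1-201 differed by as much, with 10.4 TPM in replicate 1 and 21.9 TPM in replicate 2.

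Of the 42 members with at least 2 annotated transcripts, 38 had the same leading transcript in both libraries (background 77.3%), or 33 by the second quantification (background 73.1%), and 36 had the same one by both quantifications (background 62.2%). A protein-coding transcript led 43 of the 46. Neu1 and Arsa, 2 of the 29 members that have a transcript annotated as retained intron, were led by one (background 19.7%). Ctsh was led by Ctsh-202, annotated for nonsense-mediated decay, with 41.0% of the gene's TPM in replicate 1 and 42.0% in replicate 2. By the second quantification 4 members were led by a retained intron transcript.

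Psap, Ctsd and Lgmn divided their RNA between coding transcripts of similar size. Psap-202 had 60.9% of the gene's TPM in replicate 1 and 50.2% in replicate 2, and Psap-203, which starts from another first exon, had 36.9% in replicate 1 and 47.0% in replicate 2. Ctsd-202 had 58.2% in replicate 1 and 49.0% in replicate 2, and Ctsd-201, which lacks 18 of its coding bases, had 39.6% in replicate 1 and 49.6% in replicate 2. By the first quantification the leading form of Ctsd thus differed between the libraries, by less than 1 percentage point in replicate 2. By the second quantification Ctsd-202 led in both. There it had 76.5% in replicate 1 and 53.6% in replicate 2, against 17.4% and 41.7% for Ctsd-201. The leading form of Lgmn differed between the libraries by either quantification, and by more. Lgmn-201 had 333 TPM in replicate 1 and 114 TPM in replicate 2, while Lgmn-202, with the same coding bases and another 5′ end, had 246 TPM in replicate 1 and 272 TPM in replicate 2. The 2 forms of Lgmn therefore differ in RNA outside the coding sequence.

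Lamp2 showed its known alternative ends, which give the protein different membrane anchors and tails. Lamp2-202 had 46.6% of the gene's TPM in replicate 1 and 43.5% in replicate 2, and Lamp2-201 had 29.3% in replicate 1 and 28.97% in replicate 2. Each has 137 coding bases in its last exon that the other lacks. Their order was the same in both libraries and the shares moved by little. The 2 transcripts of Ctss differ in coding sequence by 3 bases, shown in capitals in the GENCODE M21 transcript sequence because they are all that separates the proteins.
Ctss-201, chr3:95529434-95529436 in capitals, plus strand: cgctgccatCAGaagatggct
Ctss-202, which lacks those 3 bases, had 83.5% of the TPM of Ctss in replicate 1 and 81.0% in replicate 2. Ctss-201 had 16.5% in replicate 1 and 19.0% in replicate 2.

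Retained intron transcripts, in which an annotated transcript runs into what is intron in the coding transcripts, held a smaller share of lysosomal RNA than is usual for protein-coding genes in these libraries. GENCODE M21 annotates 77 of the 241 transcripts of the members as retained intron, in 29 of the 46 genes (background 61.9%). The other 17, among them Psap, Lyz2, Ctss, Ctsz, Hexa, Laptm5 and Cd68, have none annotated, so their share is 0 by annotation. Pooled over the 29, such transcripts made up 15.7% of TPM in replicate 1 and 18.2% in replicate 2, against 33.4% in replicate 1 and 35.5% in replicate 2 for protein-coding genes that have one. The second quantification gave the 29 a higher pooled share, 25.9% in replicate 1 and 26.7% in replicate 2, against 36.6% in replicate 1 and 37.7% in replicate 2 for all such genes. Median shares lay closer together, at 20.1% in replicate 1 and 19.8% in replicate 2 for the members and 32.3% in replicate 1 and 32.4% in replicate 2 for all such genes. A share of 20% or more in both libraries was held by 13 of the 29 (background 65.3%). The labels do not settle whether chromatin-bound RNA is in the fraction.

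**Figure D3:**
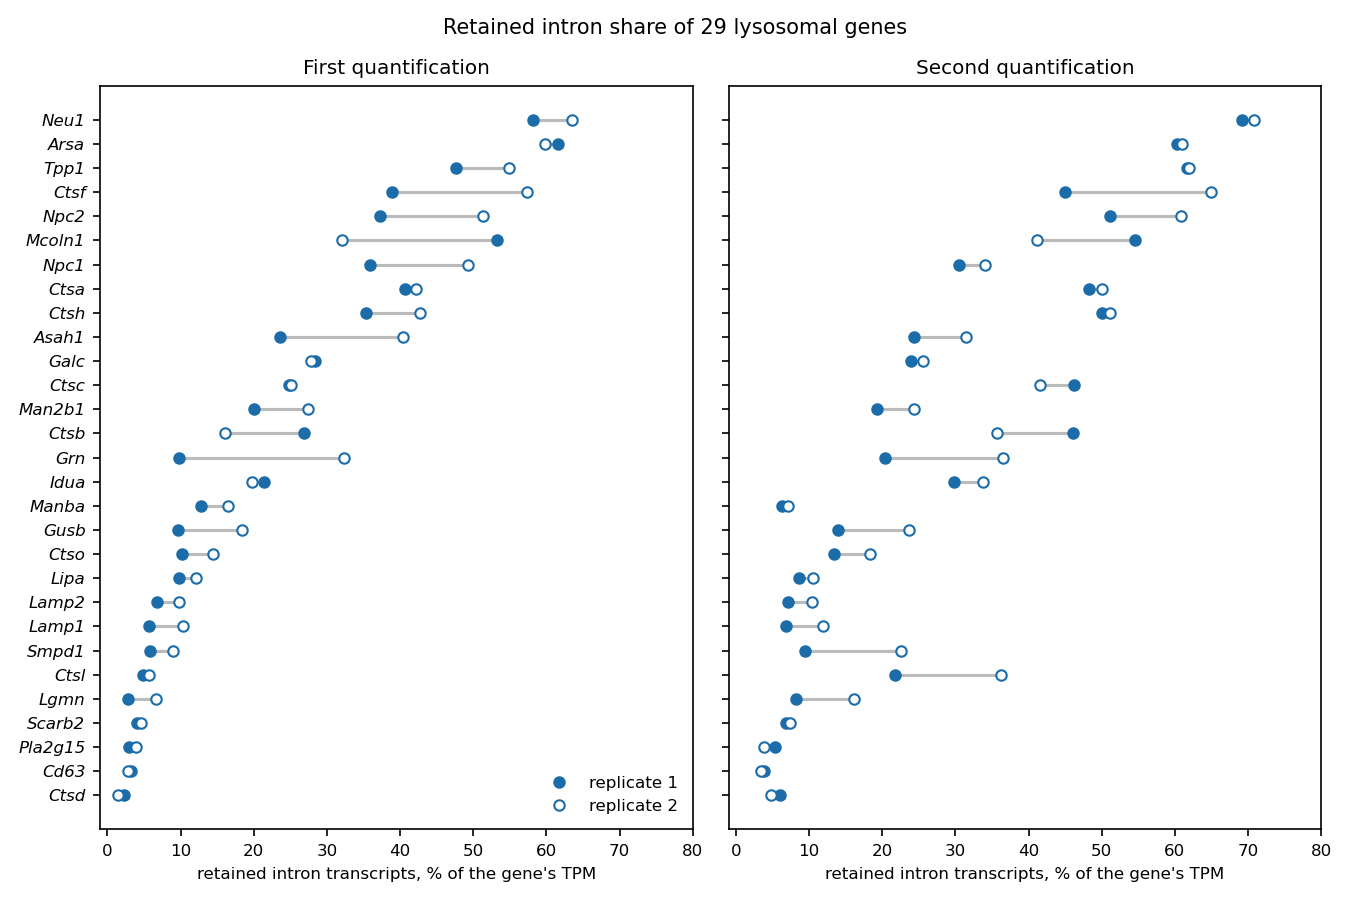
Share of each gene's TPM in transcripts annotated as retained intron, in percent, for the 29 members that have one, with a filled point for replicate 1 and an open point for replicate 2. The left panel uses the transcript tables in the format of the gene tables and the right panel the second quantification, and Neu1 and Arsa lie between 58.1% and 70.9% in both panels.

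The 10 proteases with such a transcript pooled to 16.3% in replicate 1 and 14.1% in replicate 2, and their mean shares ran from 1.798% in Ctsd to 51.3% in Tpp1. Tpp1 had 47.6% in replicate 1 and 54.9% in replicate 2, and Ctsf had 39.0% in replicate 1 and 57.3% in replicate 2. Ctsa had 40.6% in replicate 1 and 42.1% in replicate 2, and Ctsh had 35.4% in replicate 1 and 42.8% in replicate 2. The other extreme was formed by Ctsl, Lgmn and Ctsd, each under 7% in both libraries. Mean shares of 9 of the 29 members were more than 1.5-fold apart between the tables, 8 of them higher in the second quantification. Among these, Ctsl had 21.8% in replicate 1 and 36.2% in replicate 2 there, Lgmn had 8.25% in replicate 1 and 16.1% in replicate 2, and Ctsc had 46.2% in replicate 1 and 41.6% in replicate 2. Ctsb had 26.9% in replicate 1 and 16.1% in replicate 2 by the first tables, and 46.1% in replicate 1 and 35.7% in replicate 2 by the second quantification.

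Of the glycosidases, 6 have such a transcript, and they pooled to 21.1% in replicate 1 and 26.6% in replicate 2. Neu1 had the highest share of all members together with Arsa, 58.1% in replicate 1 and 63.5% in replicate 2. Galc had 28.3% in replicate 1 and 27.8% in replicate 2, and Man2b1 had 20.1% in replicate 1 and 27.5% in replicate 2. Arsa, the one sulfatase with such a transcript, had 61.5% in replicate 1 and 59.7% in replicate 2. Its retained intron transcript Arsa-201 holds only 77 intronic bases of 2699, and an antisense gene, C230037L18Rik, lies opposite 690 of its exon bases. The 4 lipid hydrolases pooled to 12.2% in replicate 1 and 19.4% in replicate 2, with Asah1 highest at 23.7% in replicate 1 and 40.5% in replicate 2. Of the soluble non-enzymes, Npc2 had 37.2% in replicate 1 and 51.3% in replicate 2, and Grn had 9.78% in replicate 1 and 32.3% in replicate 2. The 6 membrane proteins pooled to 11.96% in replicate 1 and 16.1% in replicate 2. Among them Mcoln1 had 53.3% in replicate 1 and 32.1% in replicate 2, and Npc1 had 35.9% in replicate 1 and 49.3% in replicate 2, while Cd63 and Scarb2 stayed under 5% in both.

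The retained intron transcripts with the most RNA came from a few genes. Ctsb-203 had 367 TPM in replicate 1 and 185 TPM in replicate 2. Of its 1269 bases 95.9% are intronic, in a single exon that runs out of the first exon of Ctsb. Ctsb-202 had 259 TPM in replicate 1 and 34.1 TPM in replicate 2, but only 11.4% of it is intronic, so most of its bases are shared with the coding transcript. The second quantification gave it 381 TPM in replicate 1 and 260.5 TPM in replicate 2, the libraries much closer together. Grn-208 had 16.1 TPM in replicate 1 and 118 TPM in replicate 2. The sequences below, read from GENCODE M21 transcripts, show where 4 such transcripts leave a coding exon, since intronic bases begin there. The last 15 exon bases are in lower case and the first 15 bases that are intronic in every coding transcript are in capitals. Ctsb-203 and Grn-208 end within the intron and hold no whole one.
Ctsb-203, chr14:63122551-63122580, plus strand: gtcgcgctgcgctcgGTGAGTTTGCCCGGG
Grn-208, chr11:102434495-102434524, plus strand: tgtccaatgcccaatGTGAGTGAATGGCTG
Tpp1-206, chr7:105751575-105751604, minus strand: gctctcctcaatatgGTGCCTATCAGTTGG
Ctsa-212, chr2:164834194-164834223, plus strand: gcacttccactactgGTGCTTGGCTTGGCC
All 4 stretches begin with GT, the first bases of most introns, as did 85 of the 86 such edges listed for the members' retained intron transcripts. Those of Npc1 were left out, and an edge shared by several transcripts was counted for each. The edges were placed at annotated exon ends, so the letters describe the annotation and not the reads. Grn-207 leaves the coding exon at the same place as Grn-208 and spans the full 193-base intron. Tpp1-206 had 35.1 TPM in both libraries and keeps a whole intron of 1259 bases among otherwise joined exons. Ctsa-212 had 62.6 TPM in replicate 1 and 15.9 TPM in replicate 2, with an intron of 111 bases kept, while Ctsa-216, which keeps 2 whole introns, had 31.3 TPM in replicate 1 and 43.1 TPM in replicate 2. Npc2-203 had 38.6 TPM in replicate 1 and 38.0 TPM in replicate 2, at 64.8% intronic bases. Ctsd-203 had 53.5 TPM in replicate 1 and 19.8 TPM in replicate 2. Of the 77 transcripts, 37 hold at least 1 whole intron and 62 reached 1 TPM in both libraries.

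**Figure D4:**
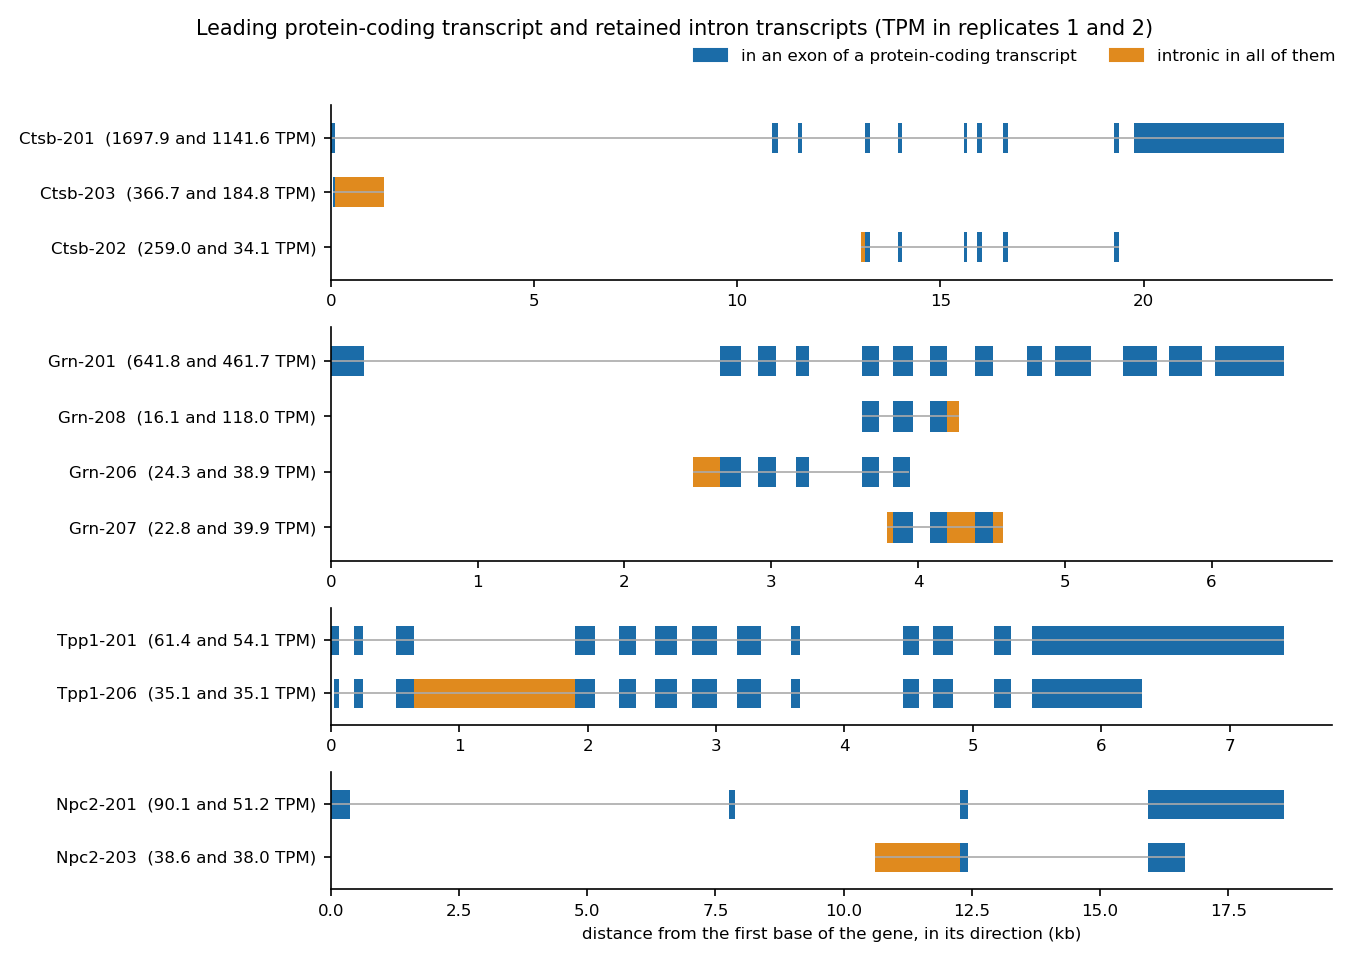
Exon maps of the leading coding transcript and the highest retained intron transcripts of Ctsb, Grn, Tpp1 and Npc2, by distance in kb from the first base of the gene, with TPM in replicate 1 and replicate 2 beside each name. Blue bases lie in an exon of a protein-coding transcript and orange bases are intronic in all of them, and the orange block of Tpp1-206 fills the gap of a single intron of 1259 bases.

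Within most of the 29 genes, retained intron transcripts shifted less toward replicate 1 than the other transcripts did. The retained intron share was lower in replicate 1 in 22 of the 29 members (background 49.3%) and in 23 by the second quantification (background 49.5%). The coding and other transcripts had a median log2 difference of 0.41 and the retained intron transcripts one of -0.12, against -0.02 and -0.05 over all protein-coding genes that have both kinds. In the proteases alone the medians were 0.52 and 0.17, so there the retained intron transcripts also leaned toward replicate 1. Before centring, the retained intron part was higher in replicate 2 in 15 of the 29 (background 41.7%) and the other part in 2 (background 38.4%). By the first tables Grn differed most between its parts, and its share was 9.78% in replicate 1 and 32.3% in replicate 2. The second quantification set that share closer together, at 20.4% in replicate 1 and 36.5% in replicate 2. Part of the gap lay in Grn-208, whose bases are mostly shared with coding transcripts. By the first tables the retained intron transcripts of Grn had 85.1 TPM in replicate 1 and 228 TPM in replicate 2, while its other transcripts had 785 TPM in replicate 1 and 476 TPM in replicate 2. Ctsb went the opposite way, with 626 TPM of retained intron transcripts in replicate 1 and 219 TPM in replicate 2. So did Ctsd, with 53.5 TPM in replicate 1 and 19.8 TPM in replicate 2. Without Ctsb, which was left out after the values were seen, the pooled share was 12.05% in replicate 1 and 18.8% in replicate 2.

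**Figure D5:**
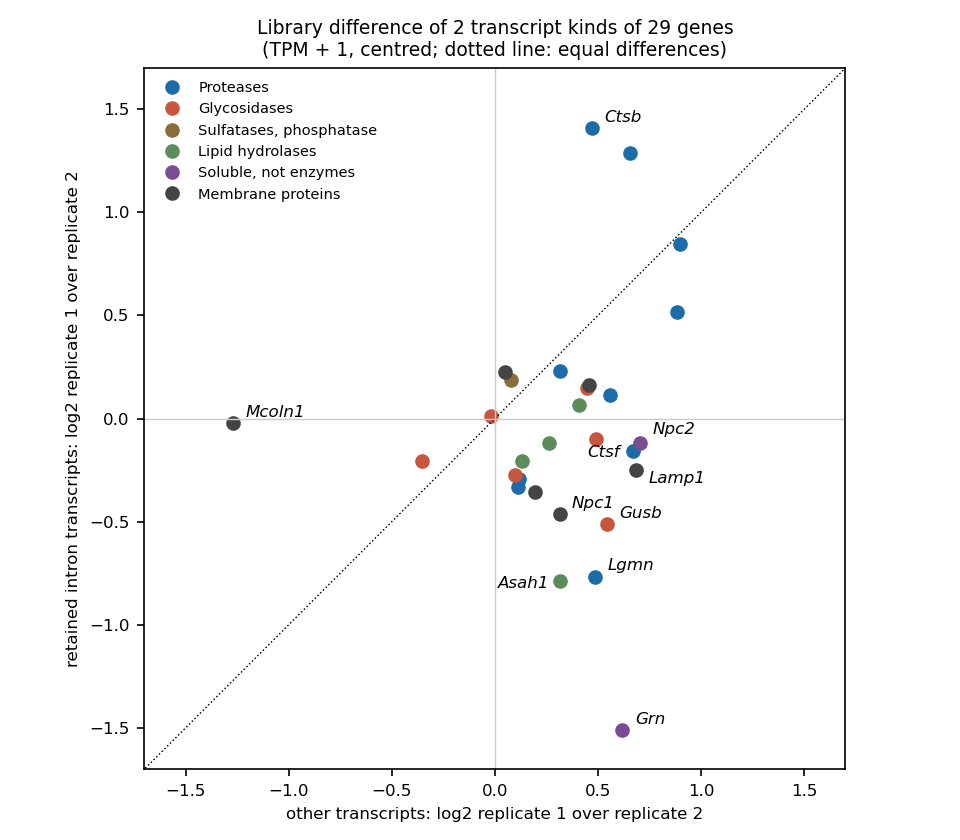
Log2 difference of replicate 1 over replicate 2 (TPM + 1, centred) of the other transcripts on the horizontal axis and of the retained intron transcripts on the vertical axis, 1 point for each of 29 members, coloured by class. Most points lie below the dotted line of equal differences, with Grn lowest, while Ctsb and Mcoln1 lie above it.

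Psap, Ctsb, Ctsd and Lyz2 were the 4 highest members by both quantifications, but the set as a whole stood higher in the gene tables. After centring on all genes, the members were higher in the gene tables by a median log2 of 0.39, against 0.03 for protein-coding genes, and 9 members were more than 1.5-fold apart (background 13.4%). Psap had 1956 TPM in replicate 1 and 2084 TPM in replicate 2 by the second quantification, below its gene table values in both libraries. The median gene also stood lower there before centring, by a log2 of 0.60 in replicate 1 and 0.17 in replicate 2. The TPM of Psap thus had the libraries in the other order, but its centred difference stayed above 0, at 0.28 or more in every scaling and table tried. Farthest apart were Manba at -0.76, Acp5 at -0.71, Lyz2 at 0.70, Cd63 at 0.70 and Ctss at 0.66. Manba had 24.7 TPM in replicate 1 and 38.3 TPM in replicate 2 by the second quantification, and Acp5 had 1.27 TPM in replicate 1 and 1.08 TPM in replicate 2, which brought it over 1 TPM. Cd63 shares 15.9% of its 31-base stretches with other genes, mainly the pseudogene Cd63-ps.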

How the data were processed

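Total RNA of a nuclear fraction was sequenced in 2 libraries of 1 group, so nothing was tested between groups. The authors made expected counts and TPM by aligning reads to the GENCODE M21 transcriptome of mm10, and a second transcript table with estimated counts and TPM directly from the reads, per the file headers and the deposited text notes. The sources used here do not name the programs. The deposited percent of each gene's abundance per transcript was recomputed from TPM, and the bounds of the TPM intervals that the authors deposited, held as a signal, were not used.

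Members were joined by gene identifier. Entries that pair with no symbol (26431 of them, with 1.30% of counts in replicate 1 and 0.522% in replicate 2) were left out. Counts differed between the libraries by more than sampling noise (chi-square per degree of freedom 32.3 over 14520 genes), so they are not 1 library deposited under 2 names; the labels make them replicates. Levels are TPM as deposited, detection is 1 TPM or more in both libraries, and differences are log2(TPM + 1), centred on genes whose mean reached 1 TPM, which understates changes of low genes. The second quantification was summed per gene. Introns were taken as bases outside exons of protein-coding transcripts, and exon overlaps of 100 bases or more were listed. Calculations used Python 3.11.15, numpy 2.4.6, pandas 2.3.3, scipy 1.17.1, matplotlib 3.10.9 and R 4.3.3, and edgeR 4.0.16 and DESeq2 1.42.0 for scaling of rounded expected counts.

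The members and the other lists were chosen with earlier results of these data known. All members may be named, with the 3 highest and 2 lowest of each other list, the 8 highest retained intron transcripts, the 5 largest and smallest differences and the 5 genes farthest apart between quantifications. A gene that this rule names is left out of the text. Genes, markers and transcripts named outside this rule were chosen after their values were seen. Alternatives were other pseudocounts, centres, scalings, detection limits, posterior mean TPM, the second quantification, counts in place of TPM, and each library alone.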

Additional observations from a re-analysis of the deposited data

How the results depend on the processing

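No paired analysis was possible because the libraries form 1 group. With 1 library left out in turn, the members' median level ran from 96.5 to 115 TPM, their share of protein-coding TPM from 4.21% to 6.19% and their pooled retained intron share from 15.7% to 18.2%, and 45 members stayed detected. The second quantification gave the members a median level of 66.6 TPM in place of 106 TPM. The median gene was lower there as well, by a log2 of 0.60 in replicate 1 and 0.17 in replicate 2. Shares of protein-coding TPM by the second quantification were 1.20% for soluble non-enzymes, 0.385% for membrane proteins, 0.121% for lipid hydrolases and 0.00662% for sulfatases and the phosphatase. In counts the last 2 held 0.172% and 0.0115%. The median difference between libraries was 0.30, and was 0.41 with posterior mean TPM and 0.16 with the second quantification, where 2 members in place of 12 were over 1.5-fold higher in replicate 1. With posterior mean TPM 1 member, Ctsc, was over 2-fold apart. Sulfatases and the phosphatase alone changed sign as a class, at -0.0298 by the second quantification. The pooled retained intron share was 16.9% on average, 8.58% in counts, 26.3% by the second quantification and 19.0% with processed and nonsense-mediated decay transcripts. Without centring, the members' median difference between quantifications was 0.77. Chosen after the data were seen, the sum of Ctsd with Gm49369 lowered the difference of Ctsd to 0.30. The cause of these changes was not tested. Depth limits Ctsk and Acp5 most.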
